A study of Mus musculus with 12 samples.

Results

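H3K9me2 and H3K9me3 are methylation marks of histone H3 that are commonly found on repressed chromatin, where H3K9me3 is bound by the HP1 proteins and keeps repeats and many silent genes closed, and where H3K9me2 is placed by enzymes such as G9a. Brown adipose tissue (BAT) burns fat for heat through the uncoupling protein Ucp1, and subcutaneous white adipose tissue (WAT) stores fat. The genomic regions described here had a peak in every list of BAT, for both marks and both diets, and in no list of WAT. They were selected on measured values: peaks with a score of at least 50 on the 19 autosomes of the 8 deposited lists were merged wherever they overlapped by at least 1 bp, and a merged region was kept when a peak of each of the 4 BAT lists and of none of the 4 WAT lists lay in it. There were 558 such regions among 86662 merged regions (0.644%).

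The mice were wild-type C57BL/6J, fed a high-fat diet (HFD) or a standard chow diet (SCD) from 6 weeks of age for 12 weeks, and the chromatin of whole tissue was cross-linked with 1% formaldehyde for 8 min. The 12 libraries were 1 for each diet, tissue and mark, named HFD BAT H3K9me2, SCD BAT H3K9me2 and so on, and 4 inputs, which were not analysed here. The methods pair H3K9me2 with an antibody described as raised against the trimethyl form and H3K9me3 with one described as raised against the dimethyl form, so the marks are called here as the library labels call them. With 1 library per group there is no replicate error, no p-value is given between diets or tissues, and every interval below is an exact (Clopper-Pearson) 95% binomial interval that covers counting error only. In bulk tissue, a mark on fewer cells and less of it per cell cannot be told apart.

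The deposited score of a peak was taken as its p-value on a scale of 10 × −log10, so that a score of 50 is a p of 1e-05. It is not scaled between libraries. At 50 or more, the autosomal lists of BAT held 42401 peaks (HFD H3K9me2), 23626 (SCD H3K9me2), 50303 (HFD H3K9me3) and 25126 (SCD H3K9me3). Those of WAT held 20790 (HFD H3K9me2), 20904 (SCD H3K9me2), 27682 (HFD H3K9me3) and 7531 (SCD H3K9me3). Each BAT list is thus longer than at least 3 of the 4 WAT lists, and the depth behind them is not given, so that list length and tissue cannot be told apart in the number of regions. In the opposite direction, 2 regions were in all 4 WAT lists and no BAT list.

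Regions in all 4 BAT lists mostly had WAT peaks as well. Of 11602 of them, 1428 had a peak in 1 WAT list, 2912 in 2, 5103 in 3 and 1601 in all 4, which leaves the 558. When 1 WAT list alone kept a region out, it was SCD WAT H3K9me2 for 603 regions, HFD WAT H3K9me3 for 495, HFD WAT H3K9me2 for 306 and SCD WAT H3K9me3 for 24.

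**Figure D1:**
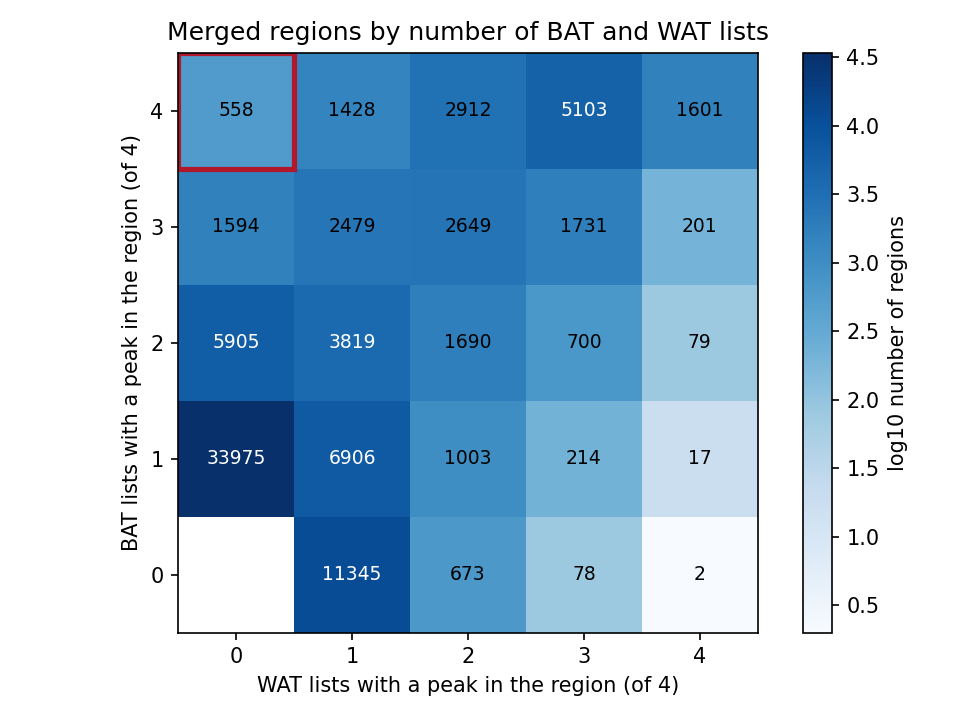
Number of merged regions by how many of the 4 BAT lists (vertical axis) and of the 4 WAT lists (horizontal axis) had a peak in them, with colour on a log10 scale. The outlined cell holds the 558 regions in all 4 BAT lists and no WAT list, and the cell opposite, with 4 WAT lists and no BAT list, holds 2.

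To show what such regions look like as sequence, 5 of them are printed. Kcnh6, Fxyd3 and Tead3 are among the 12 regions with the highest lowest score in BAT. Nfkbia and Tnfaip3 are promoter regions of the inflammation gene list. Each stretch is the part of at most 300 bases, free of annotated UTR, nearest the middle of the stretch that the peaks of the 4 BAT lists share, on the plus strand of mm9, with each CpG in capitals.
Kcnh6, chr11:105881636-105881804: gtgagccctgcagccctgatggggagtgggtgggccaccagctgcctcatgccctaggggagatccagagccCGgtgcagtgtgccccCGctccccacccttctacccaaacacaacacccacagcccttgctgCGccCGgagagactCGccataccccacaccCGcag
Fxyd3, chr7:31852376-31852675: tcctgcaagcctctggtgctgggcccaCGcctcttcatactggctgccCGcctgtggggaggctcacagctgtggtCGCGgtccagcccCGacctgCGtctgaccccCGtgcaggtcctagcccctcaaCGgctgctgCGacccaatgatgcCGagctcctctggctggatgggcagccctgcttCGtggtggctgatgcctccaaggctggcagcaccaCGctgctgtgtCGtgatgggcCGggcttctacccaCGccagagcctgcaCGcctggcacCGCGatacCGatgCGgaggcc
Tead3, chr17:28469773-28470072: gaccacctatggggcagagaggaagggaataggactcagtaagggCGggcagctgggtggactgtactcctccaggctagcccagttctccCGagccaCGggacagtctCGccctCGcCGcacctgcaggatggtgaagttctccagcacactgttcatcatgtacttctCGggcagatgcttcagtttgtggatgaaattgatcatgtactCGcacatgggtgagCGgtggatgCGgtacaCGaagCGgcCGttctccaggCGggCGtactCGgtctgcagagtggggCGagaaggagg
Nfkbia, chr12:56593214-56593513: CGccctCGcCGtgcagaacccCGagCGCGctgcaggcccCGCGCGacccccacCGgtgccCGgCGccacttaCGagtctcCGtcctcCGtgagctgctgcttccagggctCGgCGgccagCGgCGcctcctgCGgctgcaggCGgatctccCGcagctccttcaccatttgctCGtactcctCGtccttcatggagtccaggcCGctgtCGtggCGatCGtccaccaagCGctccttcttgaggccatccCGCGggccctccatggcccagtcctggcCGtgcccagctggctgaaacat
Tnfaip3, chr10:18734659-18734958: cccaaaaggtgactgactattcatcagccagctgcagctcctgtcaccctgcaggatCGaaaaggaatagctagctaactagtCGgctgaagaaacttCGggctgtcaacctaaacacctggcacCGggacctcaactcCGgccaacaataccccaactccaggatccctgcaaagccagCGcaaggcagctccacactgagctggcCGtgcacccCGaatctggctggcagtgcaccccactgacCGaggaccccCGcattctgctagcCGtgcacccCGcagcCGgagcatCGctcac

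The Kcnh6 stretch overlaps no coding exon and has 6 CpG in 169 bases and a GC content of 67.5%. The stretches at Fxyd3, Tead3 and Nfkbia overlap coding exons in part and have 20, 17 and 32 CpG in 300 bases. The region of the Fxyd3 stretch overlaps the body of Lgi4 and not that of Fxyd3. The Tnfaip3 stretch overlaps no coding exon and has 14 CpG.

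The regions were wider and richer in CpG than all merged regions at the median, and narrower and poorer in CpG than BAT regions shared with WAT lists. Their median width was 1014 bp, against 1315 bp in regions of 4 BAT and 1 to 3 WAT lists, 1527 bp in regions of all 8 lists and 840 bp in all merged regions. The widest was 4398 bp, at the promoter of Necab2, and the narrowest 595 bp. In 526 of 558 regions each BAT list had 1 peak, and in 555 the 4 BAT lists shared a stretch, with a median of 641 bp. Median GC content was 57.14%, against 59.3% in regions of 4 BAT and 1 to 3 WAT lists and 54.17% in all merged regions. The ratio of observed to expected CpG had a median of 0.4717, against 0.5762 and 0.2895 in those 2 sets. Within the 558, it was 0.566 at promoters, 0.4537 in intergenic regions, 0.4278 in introns and 0.3577 in coding exons.

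Promoters were the most frequent position. With a promoter taken as 3 kb on either side of a protein-coding start site, 248 of the 558 regions (44.4%, interval 40.3 to 48.7) were at a promoter, against 24.6% of all merged regions, 17.4% of regions in 1 to 3 BAT and no WAT lists, 51.8% of regions in 4 BAT and 1 to 3 WAT lists and 40.7% of those in all 8 lists. A start site lay inside 186 of them (33.3%). Outside promoters, 89 regions (15.9%, interval 13 to 19.3) touched a coding exon, against 6.56% with 1 to 3 WAT lists (interval 6.06 to 7.07), 4% in all 8 lists, 11.2% of regions in 1 to 3 BAT and no WAT lists and 9.01% of all merged regions. Another 49 (8.78%) were intronic, 169 (30.3%) intergenic and 3 in other exons. The middle of 242 regions (43.4%) was over 10 kb from any protein-coding start site. The regions thus had a larger share of coding exons than regions of 4 BAT lists with WAT peaks, and a smaller share of promoters than those with 1 to 3 WAT lists. The intervals do not overlap, but they cover counting error only. The set with 1 to 3 WAT lists pools 1428, 2912 and 5103 regions with 1, 2 and 3, which were not counted apart by position. A smaller promoter share than in regions with 1 WAT list is thus not shown. With 1 WAT list dropped from the rule, the share was 35.5% (HFD H3K9me3), 43.8% (SCD H3K9me3), 50.7% (HFD H3K9me2) or 51.3% (SCD H3K9me2), the 558 included. The promoter share was 34.7% with the deposited lists whole and 51.2% at a score of at least 80, where the other sets were not counted.

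**Figure D2:**
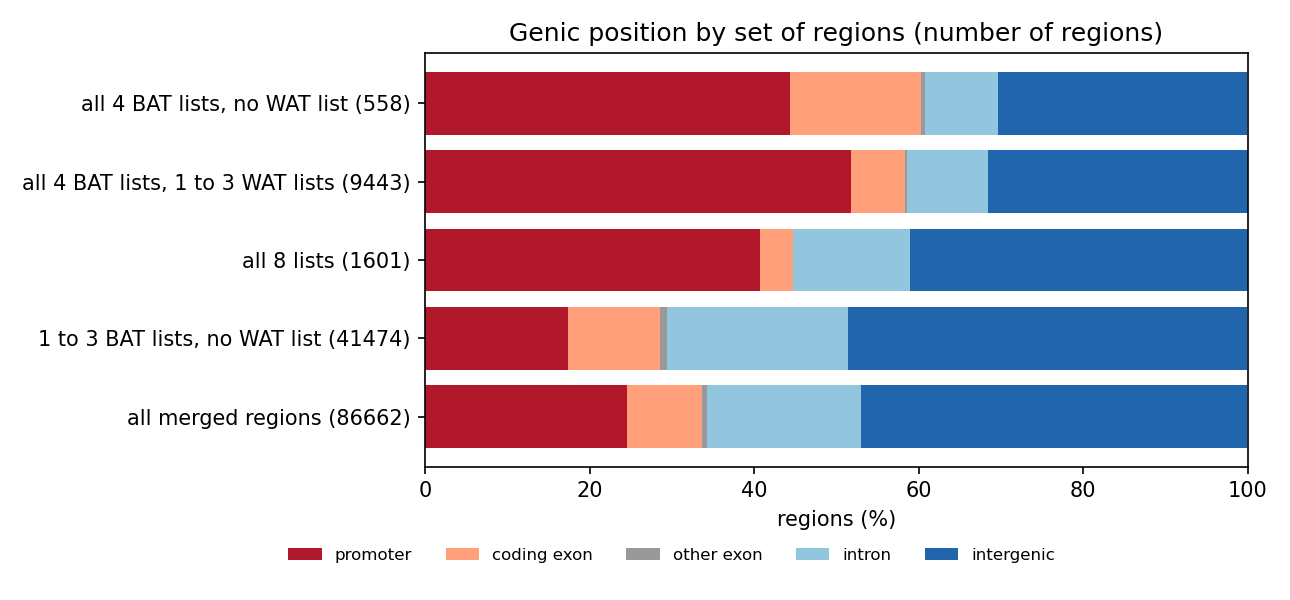
Share of regions (horizontal axis, percent) at promoters, coding exons, other exons, introns and intergenic positions in 5 sets of regions, with the number of regions in brackets. The top bar, the 558 regions, has 44.4% at promoters and 15.9% in coding exons, against 24.6% and 9.01% in all merged regions at the bottom.

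Short sequence motifs were counted on both strands in the 300 bases at the middle of each region, as letters that need not be bound sites. The Sp1 box GGGCGG, a GC-box of many housekeeping promoters, was in 33.7% of the 558 regions (interval 29.8 to 37.8), against 51% with 1 to 3 WAT lists, 48% in all 8 lists and 20.6% of all merged regions. At promoters alone it was in 45.6% of the 558 set's promoters, against 65% with 1 to 3 WAT lists and 46.1% of all merged regions at promoters. The YY1 letters AAGATGGC were in 6.63% (interval 4.71 to 9.02), against 16.2% with 1 to 3 WAT lists, 23.3% in all 8 lists and 7.12% of all. The ETS letters CCGGAAG were in 6.63%, against 12.3%, 17.6% and 4.72% in the same 3 sets. At promoters alone the ETS letters were in 9.27% of the 558 set's promoters, against 7.69% with 1 to 3 WAT lists and 7.61% of all, and the YY1 letters in 1.21%, against 3.11% and 2.83%. For EBF (CCCNNGGGA), the family of a brown fat factor, the share was 15.2% (interval 12.4 to 18.5), against 17% with 1 to 3 WAT lists and 8.29% of all. NF-Y (CCAAT) was at 28.7%, against 24.1% and 32.1% in those 2 sets. The remaining motifs were each in at most 7.53% of the 558 regions, the share of the E-box CACGTG, which was in 5.77% with 1 to 3 WAT lists and 5.72% of all.

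Scores in BAT were low beside those of BAT regions that also had WAT peaks. The median score of the 558 regions was 72.66 in HFD BAT H3K9me2 (quartiles 59.41 and 101.3), 80.63 in SCD BAT H3K9me2 (64.82 and 114.4), 124.3 in HFD BAT H3K9me3 (86.97 and 192.1) and 93.84 in SCD BAT H3K9me3 (66.54 and 144.2). These medians are at the percentiles 45.2, 44.4, 57.8 and 33.9 of the peaks of their own lists. In regions of all 8 lists the medians were 159, 199.5, 517.9 and 434 in the same order of lists, and each of the 4 was higher with every WAT list added. The rule fixes the lowest possible score and not this order, but score and presence come from the same libraries, so these values are a description.

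The weakest of the 4 scores decided membership and was close to the limit for many regions. Its median was 60.34, and it was below 60 in 273 regions (48.9%) and at least 100 in 31 (5.56%). It was the HFD BAT H3K9me2 score in 241 regions, the SCD BAT H3K9me2 score in 150, the SCD BAT H3K9me3 score in 125 and the HFD BAT H3K9me3 score in 42. The highest of the 4 scores was in HFD BAT H3K9me3 for 285 regions (51.1%). None of the 558 regions was among the 7531 highest peaks of all 4 BAT lists at once, although 62, 123, 39 and 34 were in those of HFD H3K9me2, SCD H3K9me2, HFD H3K9me3 and SCD H3K9me3.

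**Figure D3:**
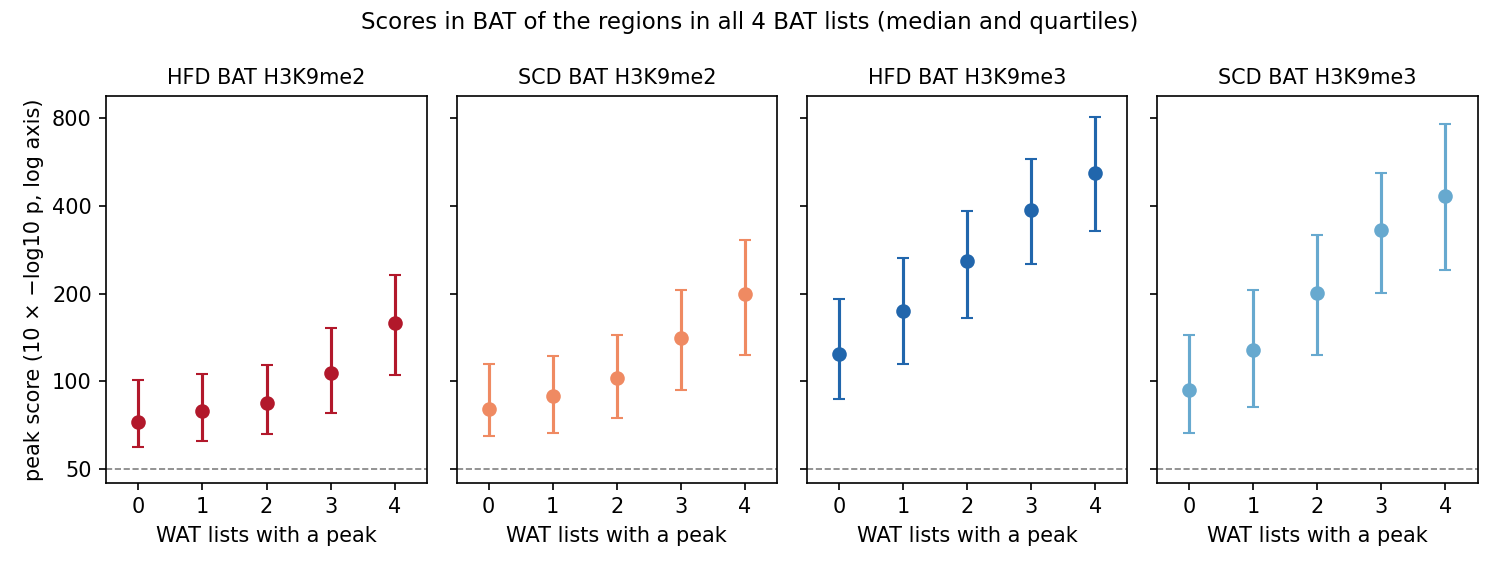
Peak score in each BAT list (vertical log axis) of regions in all 4 BAT lists, by how many WAT lists had a peak in them; points are medians, bars reach the quartiles, and the dashed line is the limit of 50. Regions with no WAT list have the lowest median in each panel, from 72.66 to 124.3, and regions with 4 WAT lists the highest, from 159 to 517.9.

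Just inside the limit, the region at the promoter of Cfc1, a co-receptor of Nodal signalling, had a score of 50.03 in SCD BAT H3K9me2, and those of Cchcr1 and near Zfp619 a lowest score of 50.09 each. Just outside it were 3 regions in all 4 BAT lists with a single WAT peak barely at the limit. By the gene of each region, they were Pcnx (50.01 in SCD WAT H3K9me2), Tcfap2b (50.02 in HFD WAT H3K9me3) and Nrg3 (50.07 in HFD WAT H3K9me2).

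Weaker WAT peaks bear directly on the absence of the mark in WAT. The 2 SCD WAT lists go down to a score of 30 (a p of 0.001), whereas the other 6 stop at 50. An SCD WAT peak scored below 50 overlapped 296 of the 558 regions (53%, interval 48.8 to 57.3), against 16.2% of all 42032 regions without a WAT peak of 50 or more. It was an H3K9me2 peak in 271 regions (48.6%), with a median score of 39.22, an H3K9me3 peak in 58 (10.4%) and both in 33. The share was 46.4% for regions in 3 BAT lists, 32.9% in 2 and 11.3% in 1. Of the 296 regions, 157 (53%) were at promoters, against 91 (34.7%) of the 262 without such a peak. Whether the HFD WAT libraries held peaks of this strength was not analysed here, because their lists end at 50. A further measure of closeness is that 63 regions (11.3%) lay within 1 kb of a WAT peak of 50 or more.

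The H3K9me2 score was higher in HFD than in SCD in 231 of 558 regions (41.4%, interval 37.3 to 45.6), against 35.8% of all 11602 regions in 4 BAT lists. The H3K9me3 score was higher in HFD in 362 regions (64.9%, interval 60.8 to 68.8), against 63.1% of the 11602. The median log2 ratio of the HFD to the SCD score was -0.14 for H3K9me2 and 0.38 for H3K9me3. In regions of 4 BAT lists and 1 WAT list the shares were 42.6% (interval 40 to 45.2) for H3K9me2 and 67.3% (64.8 to 69.7) for H3K9me3. The shares of the 558 regions are thus not particular to them. Both marks were higher in HFD in 186 regions and both higher in SCD in 151, whereas 176 were higher in SCD for H3K9me2 and in HFD for H3K9me3, and 45 the other way round. The HFD score exceeded 2 times the SCD score in 31 regions for H3K9me2 and 119 for H3K9me3, and the SCD score exceeded 2 times the HFD score in 55 and 27.

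These directions depend on how scores are set against each other. When each score was replaced by its rank within its own list, H3K9me2 was higher in HFD in 50.9% and H3K9me3 in 78.5% of the regions, against 49.1% and 78.8% of the 11602 regions in 4 BAT lists. The HFD lists of BAT are the longer ones, and diet and list length cannot be told apart with 1 library each.

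For H3K9me3 the direction went with genic position. HFD was above SCD in 186 of 248 promoter regions (75%, interval 69.1 to 80.3) and in 69 of 89 coding exon regions (77.5%, 67.4 to 85.7), against 23 of 49 intronic (46.9%, 32.5 to 61.7) and 81 of 169 intergenic ones (47.9%, 40.2 to 55.7). The same 4 shares were 73.3%, 86.2%, 52.1% and 46.5% in BAT regions with 1 to 4 WAT lists, so the pattern is not particular to the 558. For H3K9me2, HFD was above SCD in 45.6% of promoter regions (interval 39.3 to 52), against 34.7% of promoter regions with 1 to 4 WAT lists (33.4 to 35.9), and in 47.2% of coding exon, 34.7% of intronic and 33.7% of intergenic regions. Over all positions the H3K9me2 share was 41.4% in the 558, 42.6% with 1 WAT list, 37.5% with 2, 32.8% with 3 and 34.3% with 4. Promoter regions were not split by number of WAT lists, so their difference is not shown to be particular to the 558.

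**Figure D4:**
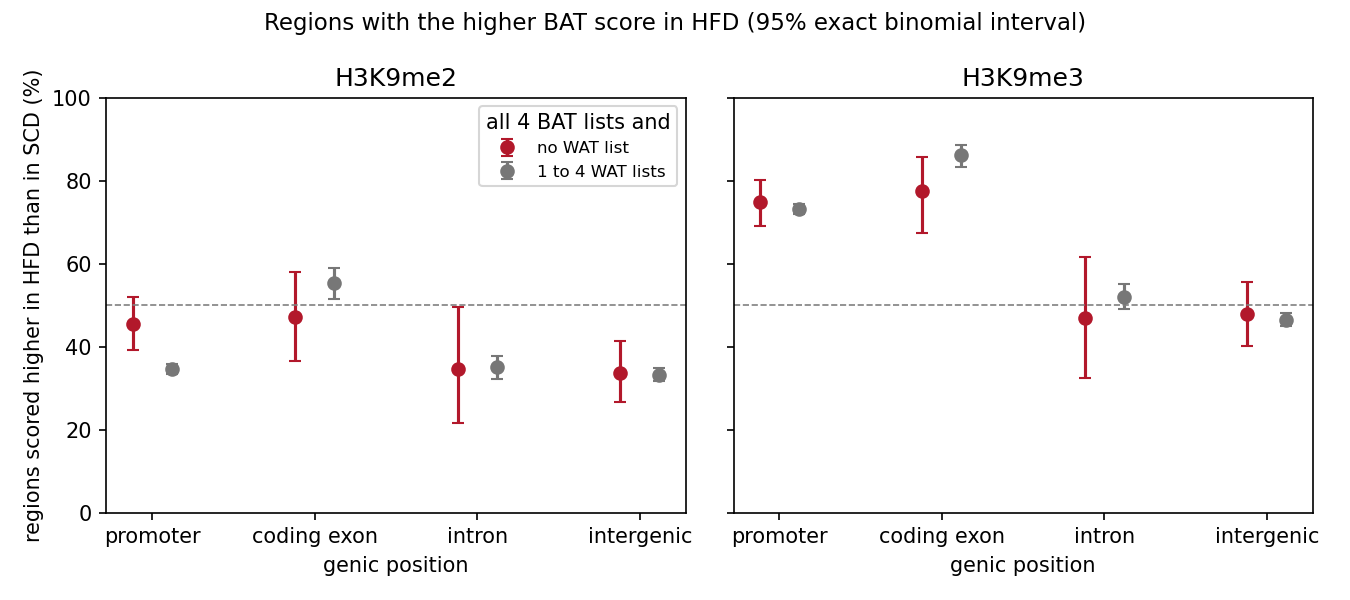
Share of regions (vertical axis, percent, with 95% exact binomial intervals) whose BAT score was higher in HFD than in SCD, for H3K9me2 (left) and H3K9me3 (right), by genic position. Red points are the 558 regions in no WAT list and grey points regions in 1 to 4 WAT lists; for H3K9me3 the red points are at 75% at promoters and 47.9% in intergenic regions.

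Genes were taken from the regions' promoters. Of 21281 protein-coding gene symbols, 276 (1.3%) had one of the regions at a promoter, and 424 (1.99%) at a promoter or in the body, and 32 regions lay at promoters of more than 1 gene. Of 32 genes of brown adipocytes and thermogenesis, 0 had such a region at the promoter, and of 24 genes of white adipocytes and adipogenesis also 0. Brown fat genes were not free of the marks: 13 of the 32 had a promoter region in all 4 BAT lists, and at all 13 genes these regions also had WAT peaks. Of all 21281 genes, 6018 had a promoter region in all 4 BAT lists, and 5799 had such a region with WAT peaks, so sharing with WAT is not particular to brown fat genes. At Adrb3, the beta-adrenergic receptor through which cold signals reach adipocytes, the scores in BAT were 182 and 181.51 for H3K9me2 in HFD and SCD and 618.72 and 130.99 for H3K9me3. In WAT the same region scored 96.38 (HFD H3K9me2), 112.77 (SCD H3K9me2) and 156.69 (HFD H3K9me3), with no SCD H3K9me3 peak. The Ucp1 promoter had a region in 3 BAT lists, at 54.62 (HFD H3K9me2), 57.75 (SCD H3K9me2) and 129.42 (HFD H3K9me3), and in HFD WAT H3K9me3 at 59.55.

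The other lists held few of the regions. Counts at promoters were 2 of 30 genes for TNF and NF-kB inflammation (6.67%), 3 of 79 for cytoplasmic ribosomal proteins (3.8%), 1 of 27 for skeletal muscle (3.7%), 1 of 37 for Wnt signalling (2.7%), 1 of 50 for MAPK and JNK signalling (2%), 5 of 341 for solute carriers (1.47%) and 4 of 358 for Zfp zinc finger genes (1.12%), beside the 1.3% of all genes. Endothelial, macrophage, lymphocyte, fibroblast, nerve, lipid metabolism, insulin, adrenergic, H3K9 enzyme, oxidative phosphorylation, olfactory receptor and housekeeping lists each had 0. Of 133 homeobox, T-box, paired and Sox genes, which direct development, 0 had one of the 558 regions at the promoter. A promoter region in all 4 BAT lists that WAT lists shared was at 87 of the 133, and at 5799 of all 21281 genes. With counts of 0 to 5 for the 558 regions, no list is set apart from all genes by them.

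The inflammation genes were Nfkbia and Tnfaip3, both inhibitors of NF-kB signalling. Nfkbia encodes IkB-alpha, which holds NF-kB in the cytoplasm, and its region, chr12:56592557-56593948, scored 53.17 in HFD and 62.64 in SCD for H3K9me2, and 410.24 in HFD and 243.49 in SCD for H3K9me3. Tnfaip3 encodes the deubiquitinating enzyme A20, and its region, chr10:18734321-18735573, scored 107.78 in HFD and 55 in SCD for H3K9me2, and 237.16 in HFD and 66.13 in SCD for H3K9me3. Both had an SCD WAT H3K9me2 peak below the limit, of 34.45 at Nfkbia and 48.2 at Tnfaip3. Of the 2, Tnfaip3 had the higher score in HFD for both marks and Nfkbia for H3K9me3 alone.

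The muscle gene was Acta1, skeletal muscle actin. Its region, chr8:126415573-126417399, scored 100.14 in HFD and 174.76 in SCD for H3K9me2, and 332.77 in HFD and 54.84 in SCD for H3K9me3. No SCD WAT peak below 50 overlapped it either. Its H3K9me3 log2 ratio of HFD to SCD, 2.60, was among the 3 highest of the 558, while H3K9me2 was higher in SCD.

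The genes of the Wnt and MAPK lists were Lrp6, a co-receptor for Wnt, and Mapk11, a p38 MAP kinase. The Lrp6 region, which covers the start site, scored 83.19 in HFD and 73.89 in SCD for H3K9me2, and 377.15 in HFD and 427.76 in SCD for H3K9me3. The Mapk11 region scored 144.83 in HFD and 64.75 in SCD for H3K9me2, and 263.28 in HFD and 60 in SCD for H3K9me3. Of these 2 regions, only that of Lrp6 had an SCD WAT peak below 50, of 39.1 for H3K9me2. Wnt9a and Mapkapk2, which these lists do not hold, also had regions at their promoters, with lowest scores of 99.08 and 103.68. Both were picked after the values were seen.

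Of the ribosomal protein genes, Rpl10a shared its region with Tead3, a DNA-binding partner of the Hippo effectors. The region overlaps the body of Tead3 and counts for Rpl10a by the 3 kb promoter window alone. This region, chr17:28468849-28471131, scored 146.93 in HFD and 264.42 in SCD for H3K9me2, and 191.62 in HFD and 112.61 in SCD for H3K9me3. Rpl27a scored 61.31 in HFD and 92.76 in SCD for H3K9me2, and 232.73 in HFD and 79.2 in SCD for H3K9me3. Rps29 scored 50.5 in HFD and 74.65 in SCD for H3K9me2, and 125.02 in HFD and 59.99 in SCD for H3K9me3. All 3 had the higher H3K9me2 score in SCD and the higher H3K9me3 score in HFD.

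Ranked by the lowest of the 4 BAT scores, the leading region was in a coding exon of Kcnh6, a voltage-gated potassium channel. It lies at chr11:105881176-105882240 and scored 149.18 in HFD and 176.31 in SCD for H3K9me2, and 472.07 in HFD and 228.55 in SCD for H3K9me3, with an SCD WAT H3K9me2 peak of 46.3. An intergenic region at chr8:99639515-99640633, its middle 603834 bp from the nearest start site, came next with a lowest score of 130.21. At Fxyd3, a regulator of the sodium pump, the region chr7:31851968-31853187 scored 142.09 in HFD and 141.11 in SCD for H3K9me2, and 356.1 in HFD and 128.41 in SCD for H3K9me3. It counts for Fxyd3 by the 3 kb promoter window, and overlaps the body of the neighbouring gene Lgi4, not that of Fxyd3.

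Of the 12 leading regions, 5 touched coding exons outside promoters, namely those of Kcnh6, Ncan (a brain proteoglycan), Pth1r (the parathyroid hormone receptor), Zfp668 (a zinc finger protein) and Aff3 (a nuclear protein). Their lowest scores were 149.18, 115.19, 113.55, 110.27 and 109.21. The remainder were at the promoters of Fxyd3, Bzrap1 and Tead3, in an intron of Slc4a10, a bicarbonate transporter, and between genes, nearest to 1700047G07Rik, Prdm2 and Psd2. Of these 12, the regions near Prdm2 and Psd2, at Tead3, in Slc4a10 and in Aff3 had no SCD WAT peak below 50.

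**Figure D5:**
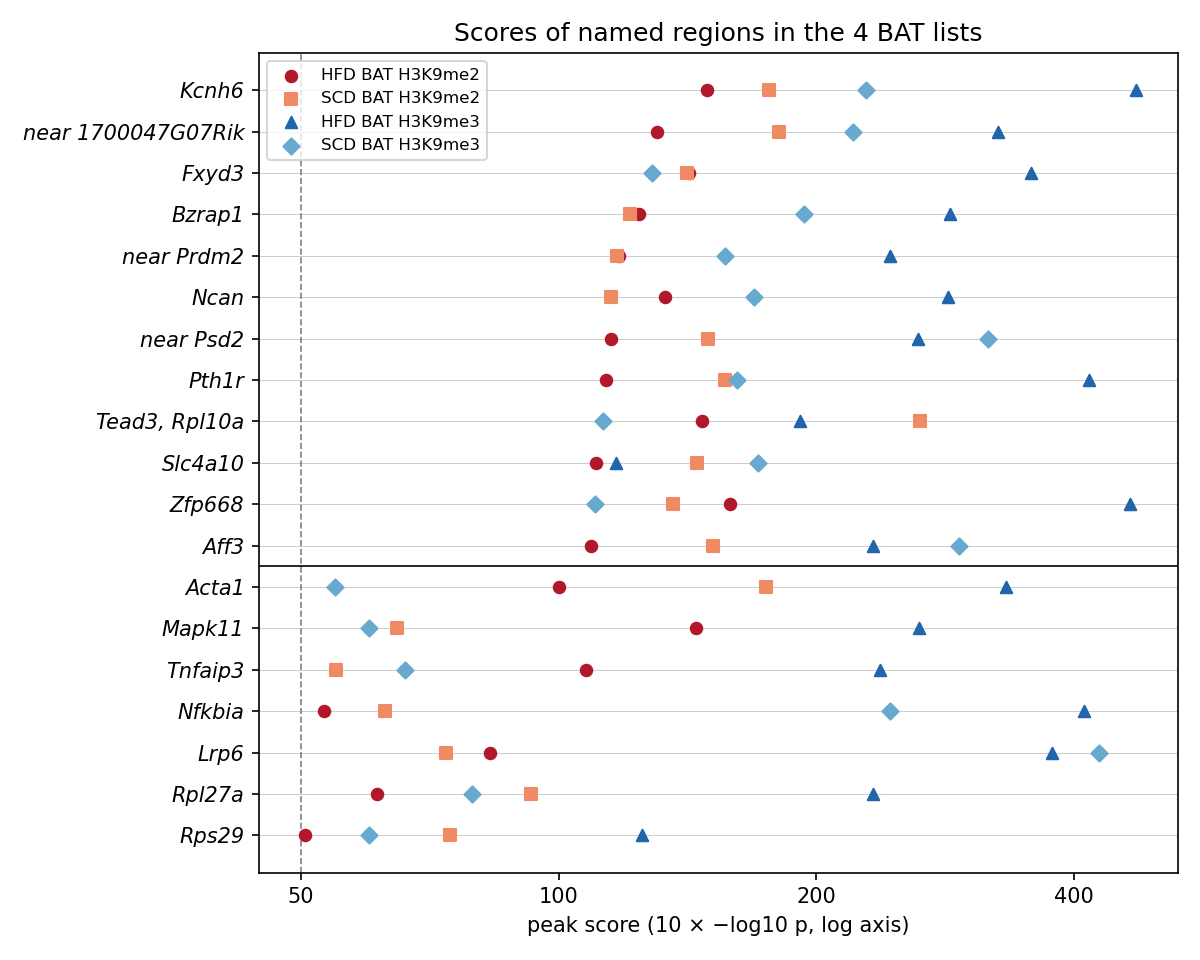
Score in each of the 4 BAT lists (horizontal log axis, dashed line at 50) of the 12 regions with the highest lowest score, above the line, and of 7 promoter regions from the gene lists, below it. The lowest score is between 109.21 and 149.18 above the line and between 50.5 and 73.89 below it, and HFD BAT H3K9me3 (dark blue triangles) is the highest score at most of them.

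The ends of the diet scale were at other genes. For H3K9me2 the highest log2 ratios of HFD to SCD were at Nbeal2 (2.79, with scores of 345.64 in HFD and 50.1 in SCD), Rbm19 (2.03, with 352.71 and 86.39) and Dohh (1.92, with 270.38 and 71.35). The lowest were in an intron of Eif4g3 (-1.94, with 57.46 in HFD and 219.86 in SCD), near Moxd1 (-1.90) and at Krtap1-5 (-1.83). For H3K9me3 the highest were at Dohh (2.94, with 488.1 in HFD and 63.66 in SCD), 9130017N09Rik (2.61) and Acta1 (2.60), and the lowest near Tmem229a (-1.84), at BC003266 (-1.74) and near Nol4 (-1.50). Dohh, which makes the hypusine of the translation factor eIF5A, was at the high end for both marks. The smaller of the 2 scores was below 100 in each of these cases but the one near Nol4, where it was 112.9 in HFD.

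Further genes are named by function, a grouping made after the values were seen and with no test. Genes with roles in muscle were Speg, a kinase of striated muscle with a lowest score of 101.82, and Ryr1, the calcium release channel of muscle, with 2 regions in coding exons whose lowest scores were 53.29 and 51.17. Lss and Sc5d, enzymes of cholesterol synthesis, had lowest scores of 75.75 and 56.55. Egln1, the oxygen sensor that marks HIF for degradation, scored 67.93 in HFD and 55.18 in SCD for H3K9me2, and 232.77 in HFD and 86.77 in SCD for H3K9me3.

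Some regions lay close together. With gaps of at most 250 kb, 48 of the 558 fell into 13 groups of at least 3. Other sets of regions were not grouped in this way, so whether this is closer than usual was not tested. The largest had 6 regions in 283071 bp at chr7:51611838-51894908, in Shank1 (a scaffold of synapses), Fam71e1, Nr1h2 with Pold1 (the catalytic subunit of a DNA polymerase) and, with 3 regions, Myh14 (a nonmuscle myosin heavy chain). One group had 5 regions in 69175 bp on chromosome 10, around Dohh, Nfic and Celf5, and another 5 regions in 644459 bp on chromosome 8 from Ncan to Rab3a. There were 12 genes with more than 1 region at the promoter or in the body, led by the predicted gene Gm20388 with 4, whose model overlaps other genes such as Acta1 and Spire2, and by Myh14 with 3. By chromosome, the share of regions of 4 BAT lists that had no WAT list was highest on chromosome 7 (57 of 859, 6.64%) and chromosome 17 (32 of 484, 6.61%) and lowest on chromosome 16 (8 of 398, 2.01%). Over all autosomes it was 558 of 11602.

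The number of regions rests on the lists' limits and lengths. When the deposited lists were taken whole, with the weak SCD WAT peaks, 262 regions remained in all 4 BAT lists and no WAT list, against 14 in all 4 WAT lists and no BAT list. The 262 are those of the 558 without a weak SCD WAT peak, as added WAT peaks could only lower the count. With the 7531 highest peaks of each list there were 37 in BAT alone, against 32 in WAT alone, and none of the 37 overlapped the 558. With a score of at least 80 in every list there were 369 against 1, and 78 of the 558 overlapped one of the 369.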

How the data were processed

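H3K9me2 and H3K9me3 ChIP-seq peak lists of BAT and WAT from HFD-fed and SCD-fed mice were used. Per the labels and the paper's methods, the authors used FastQC and Trim Galore on the reads, Bowtie2 2.4.2 for alignment to mm9 and MACS2 for peak calling. How the inputs entered the calling is not stated. The deposited score of each peak has no stated unit and was taken as 10 × −log10 of a p-value, from its lowest values. The lists give no depth. Groups were taken from the library labels, with 1 library each. Merged regions were annotated with GENCODE vM1 on NCBIM37 (mm9), and a region within 3 kb of a protein-coding start site was at a promoter, before coding exon, other exon, intron and intergenic.

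The members, the 22 gene lists and the 14 motifs were chosen with earlier results of these data known. Named regions were the 12 with the highest lowest BAT score, those at promoters of list genes, the 3 widest, the 3 lowest and 3 nearest misses, the 3 highest and lowest log2 ratios per mark, groups within 250 kb and genes with several regions, of which a part is printed. Other genes are said to be chosen after their values were seen. Calculations used Python 3.11.15, NumPy 2.4.6, SciPy 1.17.1 and matplotlib 3.10.9. The calls were tested on simulated data, and 0 differed from bedtools 2.31.1. Alternatives were other score limits, merging rules, equal list lengths, subsets of the lists and, added after the data were seen, each list left out. Some items are not reported here.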

Additional observations from a re-analysis of the deposited data

Results flagged for a closer look

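SCD WAT peaks scored below 50, which the comparisons did not count, overlapped 53% of the 558 regions, above the 16.2% of all regions without a WAT peak of 50 or more.

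The score was higher in HFD than in SCD in 41.4% of the 558 regions for H3K9me2 and in 64.9% for H3K9me3, against 35.8% and 63.1% of the 11602 regions in 4 BAT lists. Single regions went opposite ways for the 2 marks in 176 cases (SCD for H3K9me2 and HFD for H3K9me3) and 45 cases (the reverse), and the same way in the other 186 (HFD) and 151 (SCD). With 1 library per group the difference between the marks was not tested. By rank within the list the shares were 50.9% and 78.5%, against 49.1% and 78.8% of the 11602.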

How the results depend on the processing

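The number of regions was 503 with merging within 1 kb, 643 without merging and 557 without regions of over 4 kb. It was 369 at a score of at least 80, 262 with the deposited lists, 37 with equal numbers of peaks (7531 per list), 966 when WAT peaks had to cover 50% or more, 3772 with H3K9me2 lists alone, 7465 with H3K9me3 lists alone, 4692 with SCD lists alone and 7065 with HFD lists alone. Regions in all 4 WAT and no BAT lists numbered 1, 14 and 32 at a score of at least 80, with the deposited lists and with equal numbers of peaks.

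The share at promoters was 51.2% at a score of at least 80, 34.7% with the deposited lists, 51.4% with equal numbers of peaks, 52.6% with WAT coverage of 50% or more, 23.9%, 64.2%, 36.7% and 38% with H3K9me2, H3K9me3, SCD and HFD lists alone, 37.5% with promoters of 1 kb and 34.2% with 1 start site per gene.

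The share with a higher H3K9me2 score in HFD crossed 50% with H3K9me2 lists alone (60.2%) and by rank within the list (50.9%), and was 47% with WAT coverage of 50% or more. For H3K9me3 it was 72.1%, 60.3%, 83.8%, 69.2% and 78.5% at a score of at least 80, with the deposited lists, with equal numbers of peaks, with WAT coverage of 50% or more and by rank. The share with an SCD WAT peak below 50 was 43.4% at a score of at least 80, 24.3% with equal numbers of peaks and 44.8%, 29.6%, 46.6% and 34.5% with H3K9me2, H3K9me3, SCD and HFD lists alone. In each of these settings the peaks counted were SCD WAT peaks of either mark below 50. WAT peaks of 50 or more that a setting did not use were neither excluded nor counted. These shares therefore do not measure the same thing as the 53% of the main rule. The cause of the other shifts was not tested.

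Leaving out each list in turn, chosen after the data were seen, gave 582 to 1161 regions, with 35.5% to 51.3% at promoters. Each such step drops 1 condition on the same merged regions, so the count could only stay or rise. The count was highest without SCD WAT H3K9me2, and was 1134 without SCD BAT H3K9me3, 1107 without HFD BAT H3K9me2, 1053 without HFD WAT H3K9me3, 935 without SCD BAT H3K9me2 and 864 without HFD WAT H3K9me2. The alternative on repeat content was not run, because the reference sequence marks no repeats. No paired analysis was possible because each group had 1 library.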
